A study of Mus musculus with 13 samples.

Results

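The genes described here carry out DNA synthesis in S phase: they build the replication fork outside the MCM helicase, make its nucleotides and copy chromatin behind it. They are 37 genes, named as E2F-driven S-phase genes outside the licensing and recombination groups, and each was looked up by symbol in 3 tables that together hold 1592 genes. The tables come from RNA sequencing of cultured astrocytes, the star-shaped glia of nervous tissue, prepared from the retina and optic nerve of C57BL/6 mice of wild-type genotype at postnatal days 1 to 3. The cultures were kept in medium with serum. Cells received vehicle (4 samples), HLM006474 (3 samples), an inhibitor of RUNX1 and its partner CBFB (3 samples, called the RUNX1 inhibitor below) or SB431542 (3 samples) for 24 h. Doses, the vehicle's composition and whether samples were separate animals or platings do not appear in the labels. The p-values therefore speak only of variation among these samples, which could be technical. HLM006474 is a small-molecule inhibitor of E2F transcription factors. RUNX1 is a transcription factor that binds DNA together with CBFB. SB431542 inhibits the kinase of type I TGF-beta and activin receptors.

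E2F factors are held back by the retinoblastoma family in resting cells, and cyclin-dependent kinases release them late in G1. They then switch on genes for the replisome, for deoxynucleotides and for chromatin assembly, so transcripts of these genes are highest in dividing cells. Astrocytes rarely divide in adult tissue, but those of newborn animals do so in culture with serum.

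Of the 37 genes 29 were listed as lower under HLM006474 (78.4%) and none as higher, in the authors' deposited table. Of all 15169 genes tested there, 4.22% were listed as lower. Under the RUNX1 inhibitor the authors' deposited table listed 14 of the 37 as lower (37.8%) and none as higher, against 2.32% listed as lower among the 13561 genes tested. None of the 37 was listed under SB431542 in either direction. Of the 15169 genes tested there, 2.64% were listed as lower and 2.29% as higher, so few of any 37 genes would be listed. The 37 genes were chosen with earlier results of these data known, so part of these contrasts may come from that choice. A gene is listed when its adjusted p is under 0.05 and its change reaches about 1.5-fold (1.495 at the least, 0.58 on the log2 scale), so a gene outside a table may still have changed by less. Counted over all 37, with unlisted genes taken to lie above that limit, the median log2 fold change under HLM006474 was -0.77. Among listed genes alone, the 29 were no further down (median -0.83) than all 640 genes listed as lower (-0.84), and likewise the 14 under the RUNX1 inhibitor (-0.68 against -0.77). The median over all genes tested lay inside the limits for each compound, since far fewer than 1 gene in 2 was listed. The 3 comparisons share the vehicle samples, so the HLM006474 and the RUNX1 inhibitor values are not independent of each other. In these bulk samples, fewer cells in S phase and less transcript per cell cannot be told apart. Values per sample were not analysed here, and errors below are the authors' standard errors.

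**Figure D1:**
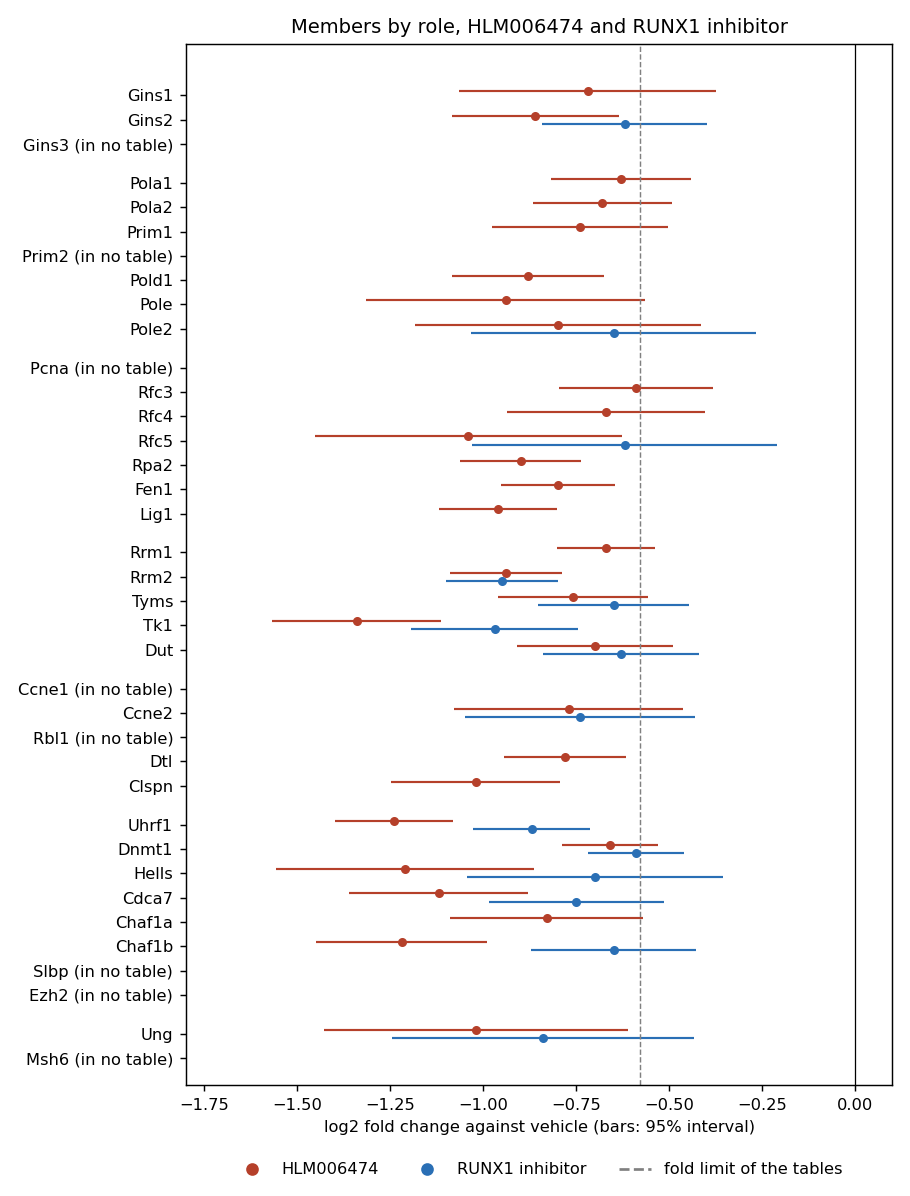
Log2 fold change against vehicle for the 37 genes, grouped by role from the GINS complex (top) to repair (bottom), with 95% intervals from the authors' standard errors. Points stand only where a table lists the gene: 29 under HLM006474, 14 under the RUNX1 inhibitor, none under SB431542, and 8 genes in no table. All points lie left of the dashed fold limit because the tables were cut there.

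RefSeq promoter windows of build GRCm38.p6, from 250 bases before to 50 bases after a gene's start, were found for 32 of the 37 genes. They were searched on both strands for E2F-type cores, meaning TTCCCGC or TTCGCGC or TTGCCGC or TTGGCGC. At least 1 window of 23 of these 32 genes (71.9%) held a core, against 10.9% of all 27025 genes with a window and 13.7% of the 17492 protein-coding ones. The genes were named as E2F-driven, so this share is no independent evidence for E2F. The windows are also rich in G and C, with a median of 63.2% against 52.8% over all genes, and the cores hold these bases. In 22 of the 32 genes a core began within 100 bases before the start or in the 50 after it. For the form with a further T in front, the counts were 15 of 32 (46.9%) against 2.60% of all genes. The GC box GGGCGG was found in 71.9% of the 32 against 38.2%, the CCAAT box in 16 of the 32 against 41.1%, and the cell cycle homology element TTTGAA in 9.38% against 20.2%. The 9 genes with a window but no core were Ccne1, Dut, Pcna, Pola2, Rfc5, Slbp, Tk1, Tyms and Ung. The windows below belong to the genes the results turn on, with cores in capitals (GCGGGAA or GCGCGAA or GCGGCAA mark cores on the opposite strand). Tk1 had the largest fall and no core, at chr11:117825965-117826264, minus strand. Uhrf1 (chr17:56303087-56303386, plus strand) and Chaf1b (chr16:93883651-93883950, plus strand) fell further under HLM006474 than under the RUNX1 inhibitor. Lig1 (chr7:13278576-13278875, plus strand; the 1 of its 3 windows with the most cores) fell under HLM006474 and was not listed under the RUNX1 inhibitor. Rrm2 (chr12:24708004-24708303, plus strand) had nearly the same fold under both.
Tk1: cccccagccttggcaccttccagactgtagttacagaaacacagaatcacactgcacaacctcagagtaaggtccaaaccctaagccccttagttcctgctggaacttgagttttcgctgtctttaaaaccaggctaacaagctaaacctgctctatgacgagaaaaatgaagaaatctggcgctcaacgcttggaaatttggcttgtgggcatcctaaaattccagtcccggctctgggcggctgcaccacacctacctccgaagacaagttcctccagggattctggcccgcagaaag
Uhrf1: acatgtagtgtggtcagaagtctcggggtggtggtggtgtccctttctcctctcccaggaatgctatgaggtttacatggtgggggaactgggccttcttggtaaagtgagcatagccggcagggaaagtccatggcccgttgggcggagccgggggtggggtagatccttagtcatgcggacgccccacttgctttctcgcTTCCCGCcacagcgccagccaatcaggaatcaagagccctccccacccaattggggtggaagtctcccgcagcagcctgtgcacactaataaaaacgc
Chaf1b: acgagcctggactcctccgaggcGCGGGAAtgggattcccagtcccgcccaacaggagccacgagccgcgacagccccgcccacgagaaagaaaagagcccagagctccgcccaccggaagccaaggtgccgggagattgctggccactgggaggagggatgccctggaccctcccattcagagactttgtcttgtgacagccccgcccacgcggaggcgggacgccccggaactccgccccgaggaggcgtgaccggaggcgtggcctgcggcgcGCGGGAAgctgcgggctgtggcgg
Lig1: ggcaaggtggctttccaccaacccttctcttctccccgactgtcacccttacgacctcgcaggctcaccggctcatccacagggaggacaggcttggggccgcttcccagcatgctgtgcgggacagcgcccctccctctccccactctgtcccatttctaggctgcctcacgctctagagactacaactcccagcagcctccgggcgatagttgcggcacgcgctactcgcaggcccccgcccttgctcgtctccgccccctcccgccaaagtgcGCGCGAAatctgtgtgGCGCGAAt
Rrm2: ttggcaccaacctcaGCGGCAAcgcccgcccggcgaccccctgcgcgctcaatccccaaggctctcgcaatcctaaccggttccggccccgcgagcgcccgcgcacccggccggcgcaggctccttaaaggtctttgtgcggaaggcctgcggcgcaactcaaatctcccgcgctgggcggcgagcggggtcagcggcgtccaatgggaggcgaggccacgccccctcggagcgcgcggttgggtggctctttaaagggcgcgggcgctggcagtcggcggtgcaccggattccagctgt

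The core of Uhrf1 begins 48 bases before the start, in the upstream of 2 windows that each hold 1 core. Both cores of the Lig1 window shown lie in the first 50 transcribed bases, 26 and 42 bases after its start. Another of the 3 Lig1 windows holds 1 core, 3 bases after its own start. Chaf1b has a core far upstream, at -227, and another at 26 after the start. The single core of Rrm2 lies at -235. A match of letters is a description, not a site of binding.

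**Figure D2:**
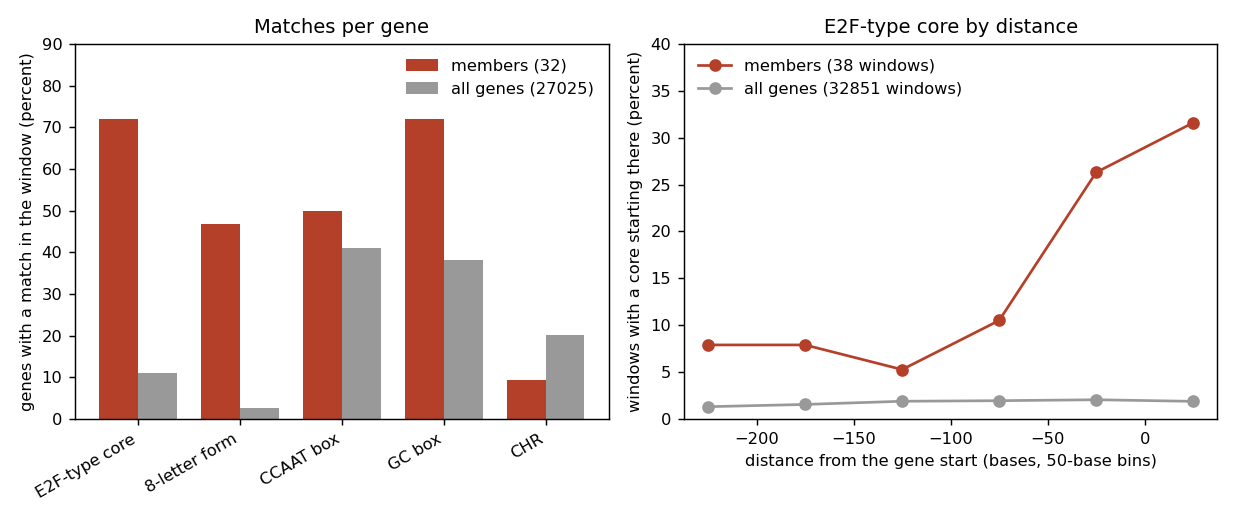
Left, percent of genes with a match in the promoter window for 5 letter patterns, in the 32 genes with a window (red) and all 27025 genes (grey). Right, percent of windows in which an E2F-type core begins, in 50-base bins by distance from the start: 31.6% of the 38 member windows held one in the 50 bases after the start against 1.87% of all windows, and 26.3% against 2.04% in the 50 bases before it.

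Nucleotide supply was the group in which every gene was lower under HLM006474 (5 of 5), and 4 of the 5 were lower under the RUNX1 inhibitor. Tk1, thymidine kinase, which salvages thymidine in S phase, had the largest fall of all 37 genes. In the authors' deposited tables it stood at -1.34 ± 0.116 (adjusted p = 1.09e-28) under HLM006474 and -0.97 ± 0.114 (adjusted p = 2.86e-15) under the RUNX1 inhibitor. These are 39.5% of the vehicle level (95% interval 33.8 to 46.3%) and 51.1% (43.8 to 59.7%). Rrm2, the S-phase subunit of ribonucleotide reductase, which converts ribonucleotides to deoxyribonucleotides, had nearly the same fold under both compounds: -0.94 ± 0.077 and -0.95 ± 0.077 in the authors' deposited tables. By p-value it ranked 52 of 15169 genes under HLM006474 and 17 of 13561 under the RUNX1 inhibitor. Its partner Rrm1, the large subunit, stood at -0.67 ± 0.067 under HLM006474 in the authors' deposited table and was absent from that of the RUNX1 inhibitor. Both subunits thus fell under HLM006474, whereas only the small one reached the limits under the RUNX1 inhibitor, a contrast between the subunits that was not tested. Tyms, thymidylate synthase, stood at -0.76 ± 0.103 and -0.65 ± 0.103 in the authors' deposited tables. Dut, the dUTPase that keeps uracil out of DNA, stood at -0.70 ± 0.107 and -0.63 ± 0.107 there. Reads of Tyms may be shared with the annotated pseudogene Tyms-ps, so its value is uncertain to that extent.

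Among the other nucleotide synthesis genes, a list of 30 that supply purines, pyrimidines and one-carbon units, 1 was lower under HLM006474 and 1, Dctd, under the RUNX1 inhibitor. These counts are near the shares of all genes tested that were listed as lower, 4.22% and 2.32%. Dctd, dCMP deaminase, which feeds dUMP to thymidylate synthase, stood at -0.77 ± 0.208 in the authors' deposited table. SB431542 raised the folate enzymes Mthfd2, by 0.70 ± 0.111, and Shmt1, by 0.74 ± 0.141, in the authors' deposited table. No gene of purine synthesis on the list was in any table.

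Of the 7 polymerase and primase genes 6 were lower under HLM006474 and 1 under the RUNX1 inhibitor. Pola1 and Pola2, the catalytic and B subunits of polymerase alpha, which starts each new strand, had values of -0.63 ± 0.096 and -0.68 ± 0.095 in the authors' deposited table for HLM006474. Prim1, the catalytic primase subunit that lays the RNA primer, stood at -0.74 ± 0.121 there, and its partner Prim2 was in no table. Pold1, the catalytic subunit of the lagging-strand polymerase delta, fell by 0.88 ± 0.104 to 54.3% of vehicle (47.1 to 62.6%) in the authors' deposited table. Pole, the catalytic subunit of the leading-strand polymerase epsilon, stood at -0.94 ± 0.191 in the same authors' deposited table. Pole2, the second subunit of polymerase epsilon, was the gene of this group in both of the authors' deposited tables, at -0.80 ± 0.196 under HLM006474 and -0.65 ± 0.196 under the RUNX1 inhibitor. It had the lowest mean count of the listed members, 121. The predicted gene Gm49384 overlaps 8.50% of its exon bases and was also lower, by the authors' deposited tables at -1.14 ± 0.342 under HLM006474 and -1.06 ± 0.342 under the RUNX1 inhibitor, so reads of the pair may have been divided between them.

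Of the 7 genes for the sliding clamp, its loader and lagging-strand work, 6 were lower under HLM006474 and 1 under the RUNX1 inhibitor. Pcna, the ring that tethers polymerases to DNA, was in no table. The annotated pseudogenes Pcna-ps1 and Pcna-ps2 may share its reads. Of the clamp loader genes, Rfc3 stood at -0.59 ± 0.106 and Rfc4 at -0.67 ± 0.136 under HLM006474, in the authors' deposited table. Rfc5 stood at -1.04 ± 0.210 and, under the RUNX1 inhibitor, at -0.62 ± 0.209 (adjusted p = 0.0189), in the authors' deposited tables. Lig1, the ligase that seals Okazaki fragments, fell to 51.3% of vehicle (45.9 to 57.2%), a log2 fold change of -0.96 ± 0.081 in the authors' deposited table for HLM006474. Fen1, the nuclease that trims their flaps, stood at -0.80 ± 0.078 in the same authors' deposited table. Rpa2, a subunit of the single-strand binding complex RPA, stood at -0.90 ± 0.083 there (adjusted p = 3.08e-25, from the authors' deposited table). Fen1, Lig1 and Rpa2 were not listed under the RUNX1 inhibitor. In the GENCODE M21 annotation 84.2% of Fen1 exon bases also lie in exons of genes on the other strand, Tmem258 and Gm10143, and since strandedness is not given in the sources used here, these reads cannot be told apart. None of those partners was in a table.

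Of the 3 GINS genes, whose products join CDC45 and the MCM ring in the active helicase, Gins1 and Gins2 were lower under HLM006474. Their values were -0.72 ± 0.176 and -0.86 ± 0.114 in the authors' deposited table. Gins2 was also lower under the RUNX1 inhibitor, at -0.62 ± 0.113 in the authors' deposited table, and Gins3 was in no table. Gse1, on the other strand, covers 67.3% of the exon bases of Gins2 and was in no table.

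Of the 8 genes that copy chromatin and its marks, 6 were lower under HLM006474 and 5 under the RUNX1 inhibitor. Uhrf1, which reads hemimethylated DNA and recruits the maintenance methyltransferase, had the lowest p of the 37 genes under HLM006474, ranking 15 of 15169. It stood at 42.2% of vehicle (37.8 to 47.1%) under HLM006474 and at 54.5% (48.9 to 60.8%) under the RUNX1 inhibitor, computed from the authors' deposited tables. Dnmt1, that methyltransferase, was less reduced, at -0.66 ± 0.066 and -0.59 ± 0.066 in the authors' deposited tables. Hells, the remodelling ATPase that opens chromatin for methylation, stood at -1.21 ± 0.177 and -0.70 ± 0.176 there, in the authors' deposited tables. Cdca7, the zinc-finger partner that activates it, stood at -1.12 ± 0.123 and -0.75 ± 0.120 in the authors' deposited tables. In each of these 4 genes the point value was lower under HLM006474. Chaf1b, a subunit of the chromatin assembly factor CAF-1 that deposits new histones, stood at -1.22 ± 0.117 and -0.65 ± 0.113 in the authors' deposited tables. The large subunit gene Chaf1a was listed for HLM006474 only, at -0.83 ± 0.132 in the authors' deposited table, and 52.5% of its exon bases are shared with Ubxn6 on the other strand. Slbp, which binds histone mRNA, and Ezh2, the methyltransferase of Polycomb, were in no table.

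Of 25 other chromatin replication and methylation genes, 3 were lower under HLM006474 and 1 under the RUNX1 inhibitor. Of all genes tested, 4.22% and 2.32% were listed as lower, so the count under the RUNX1 inhibitor is near that share. Cdca7l, a relative of Cdca7, was in both, at -0.83 ± 0.114 and -0.70 ± 0.114 in the authors' deposited tables. The fork repair partners Mms22l and Tonsl had values of -0.61 ± 0.148 and -1.04 ± 0.321 under HLM006474 in the authors' deposited table. Neither de novo methyltransferase gene (Dnmt3a and Dnmt3b) and no Tet gene was in a table. Asf1b, a histone chaperone that hands histones to CAF-1, was higher under SB431542, at 0.59 ± 0.128 in the authors' deposited table. It was the only gene of the 25 listed there, a share near the 2.29% of all genes tested that were higher.

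Of the 5 genes of G1/S control and the fork checkpoint, 3 were lower under HLM006474 and 1 under the RUNX1 inhibitor. Ccne2, a cyclin E that activates CDK2 at S-phase entry, stood at -0.77 ± 0.157 and -0.74 ± 0.158 in the authors' deposited tables. Its paralog Ccne1 and Rbl1, the retinoblastoma-family gene for p107, were in no table. Clspn, claspin, which carries the ATR checkpoint signal at stalled forks, stood at -1.02 ± 0.116 (49.4% of vehicle) under HLM006474 in the authors' deposited table. Dtl, the substrate receptor that destroys CDT1 once forks run, stood at -0.78 ± 0.084 in the same authors' deposited table. In repair, Ung, the uracil-DNA glycosylase, stood at -1.02 ± 0.208 and -0.84 ± 0.207 in the authors' deposited tables. Msh6, a mismatch recognition subunit, was in no table.

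Standard errors of the 29 genes ran from 0.066 to 0.210 and mostly followed the mean count, which ranged from 121 to 4200. Rfc5, Pole, Hells and Ung had larger errors than most genes of like mean count (within 1.5-fold) in the HLM006474 table. For Rfc5 97.4% of 116 such genes had a smaller error, for Pole 94.8% of 115, for Hells 90.7% of 108 and for Ung 84.3% of 198. The mean normalised count was also divided by kilobases of annotated exon, taken over all transcripts of a gene. It was then highest for Rrm2 (985), followed by Uhrf1 (402), Rrm1 (381) and Fen1 (379, with most exon bases shared). The lowest values were those of Pole2 (42.0) and Ung (42.2). Annotated exons that are not used in these cells would lower a gene's value, so the scale orders genes only roughly. The mean count also pools vehicle and treated libraries, in which the genes fell by different amounts, so close values give no order.

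**Figure D3:**
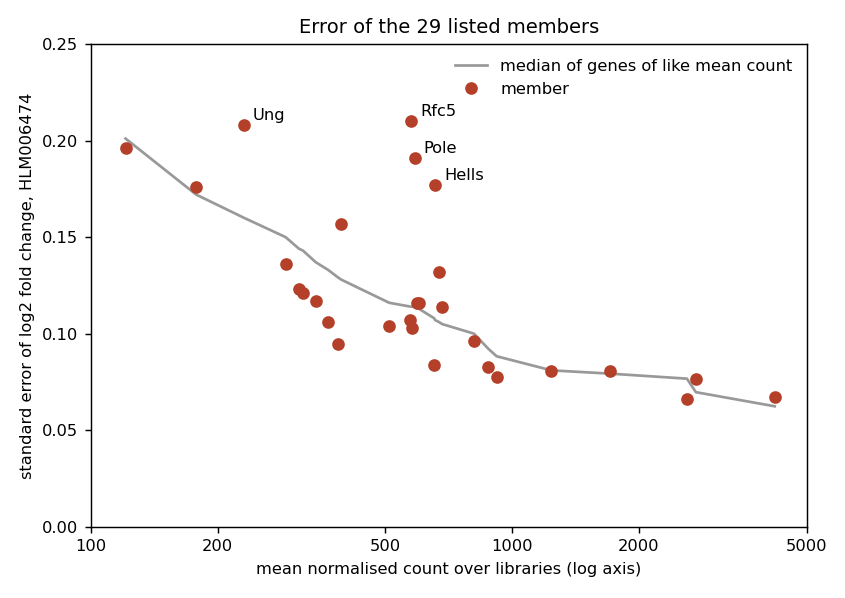
Standard error of the log2 fold change under HLM006474 (vertical) against mean normalised count over libraries (horizontal, log axis) for the 29 listed genes. The grey line is the median error of other listed genes with a mean count within 1.5-fold. Rfc5, Pole, Hells and Ung lie well above it.

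The fall under HLM006474 was larger than under the RUNX1 inhibitor in 13 of the 14 genes listed for both, against 65.3% of all 176 genes lower in both tables, and 2 of these 14 differences passed the test. The difference of the 2 log2 fold changes was tested with a 2-sided z test over all 210 genes in both tables, of which 6.19% were called lower under HLM006474. Chaf1b differed by -0.57 ± 0.162 (95% interval -0.89 to -0.25; adjusted p = 0.0121) and Uhrf1 by -0.37 ± 0.114 (-0.59 to -0.15; adjusted p = 0.0152), from the authors' deposited tables with Benjamini-Hochberg adjustment. With Bonferroni adjustment of the same z test over the 210 genes neither passed (adjusted p = 0.0971 and 0.248, from the authors' deposited tables). This error treats the comparisons as separate and is too large where they share vehicle samples. With an error that takes vehicle as shared, Tk1, Cdca7 and Hells passed as well (adjusted p = 0.0198, 0.0321 and 0.0435), 5 genes in all. Of all 210 genes, 10.0% were called lower under HLM006474 with this error. For Tk1, Cdca7 and Hells the differences were -0.37 ± 0.162, -0.37 ± 0.171 and -0.51 ± 0.250, printed with the larger error that treats the comparisons as separate. For Rrm2 the difference was 0.01 ± 0.109, with an interval of -0.21 to 0.22, and for Dnmt1 -0.07 ± 0.094, with an interval of -0.25 to 0.12. These intervals leave room for differences of about that size in either direction. The other 7 genes had intervals that include 0, the widest being that of Rfc5 (difference -0.42 ± 0.296).

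**Figure D4:**
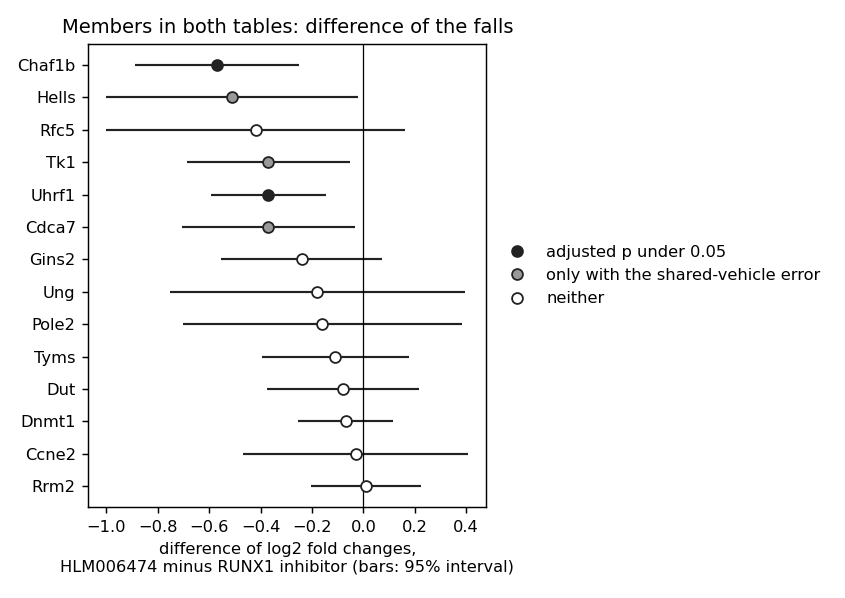
Difference of the log2 fold changes, HLM006474 minus the RUNX1 inhibitor, with 95% intervals for the 14 genes in both tables. Black points (Chaf1b, Uhrf1) passed at adjusted p under 0.05, grey points (Tk1, Cdca7, Hells) passed only with the error that takes vehicle as shared, and 13 of 14 points lie left of 0.

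Of the 29 genes lower under HLM006474, 15 (51.7%) were not in the RUNX1 inhibitor table, against 72.5% of all 640 genes lower under HLM006474. These 15 genes were set against the largest fall that the RUNX1 inhibitor table would leave unlisted. With the HLM006474 errors used for both compounds, that limit was 0.58 for each of them, the fold limit. The 15 genes had entered by passing a fold limit of that size under HLM006474, so all lay beyond it by construction. The p-values below do not allow for this selection, here or in the bounds against SB431542. Lig1 lay 0.38 beyond it (adjusted p = 0.00853, 1-sided z test with Benjamini-Hochberg adjustment over 569 genes) and Rpa2 0.32 beyond it (adjusted p = 0.0467). With the error assumed for the RUNX1 inhibitor 1.1 times larger, only the call for Lig1 remained. The other 13 did not pass, Clspn coming nearest (0.44 beyond the limit, adjusted p = 0.0544), so for them absence from the RUNX1 inhibitor table does not show a weaker effect. Over all 569 genes 6.85% passed. Against SB431542, 7 of the 29 genes passed in the same way: Uhrf1, Tk1, Chaf1b, Rrm2, Lig1, Cdca7 and Rpa2, with 7.08% of 692 genes passing. Uhrf1 lay 0.66 beyond the limit (adjusted p = 4.55e-07, 1-sided z test with Benjamini-Hochberg adjustment) and Tk1 0.76 beyond it (adjusted p = 8.71e-05). Of the 14 genes listed under the RUNX1 inhibitor only Rrm2 lay beyond the SB431542 limit, by 0.37 (adjusted p = 0.0317, same test), with 1.32% of 304 genes passing. With the error assumed for SB431542 1.1 times larger that call ended.

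In the lists of other replication and cell cycle genes, 41 of 175 genes were lower under HLM006474 and 28 under the RUNX1 inhibitor, and none was higher under either. Over all genes tested, 4.22% and 2.32% were listed as lower. SB431542 listed 4 of the 175 as higher and none as lower, a share near the 2.29% listed as higher among all genes tested there. Licensing genes and the MCM helicase were lower in 9 of 15 cases under HLM006474 and 8 of 15 under the RUNX1 inhibitor, with Mcm2 at -1.05 ± 0.065 and -0.63 ± 0.064 in the authors' deposited tables. Of 31 other fork genes 10 and 7 were lower. Timeless, of the fork protection complex, stood at -1.06 ± 0.103 and -0.79 ± 0.101 in the authors' deposited tables. Of 29 other G1/S regulators 5 and 2 were lower, with Ccna2, cyclin A, at -0.85 ± 0.056 and -0.73 ± 0.056, and the repressor E2f8 at -1.23 ± 0.134 and -0.89 ± 0.132, in the authors' deposited tables. Myc, a transcription factor of growth, was higher under SB431542, at 0.61 ± 0.074 in the authors' deposited table. Of 25 checkpoint and repair partners 4 and 2 were lower, among them Exo1, an exonuclease of mismatch repair, at -1.10 ± 0.194 and -0.64 ± 0.191 in the authors' deposited tables. Of 20 mitosis genes 9 and 7 were lower, with Mki67, the marker of cycling cells, at -1.11 ± 0.092 and -0.69 ± 0.092 in the authors' deposited tables.

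**Figure D5:**
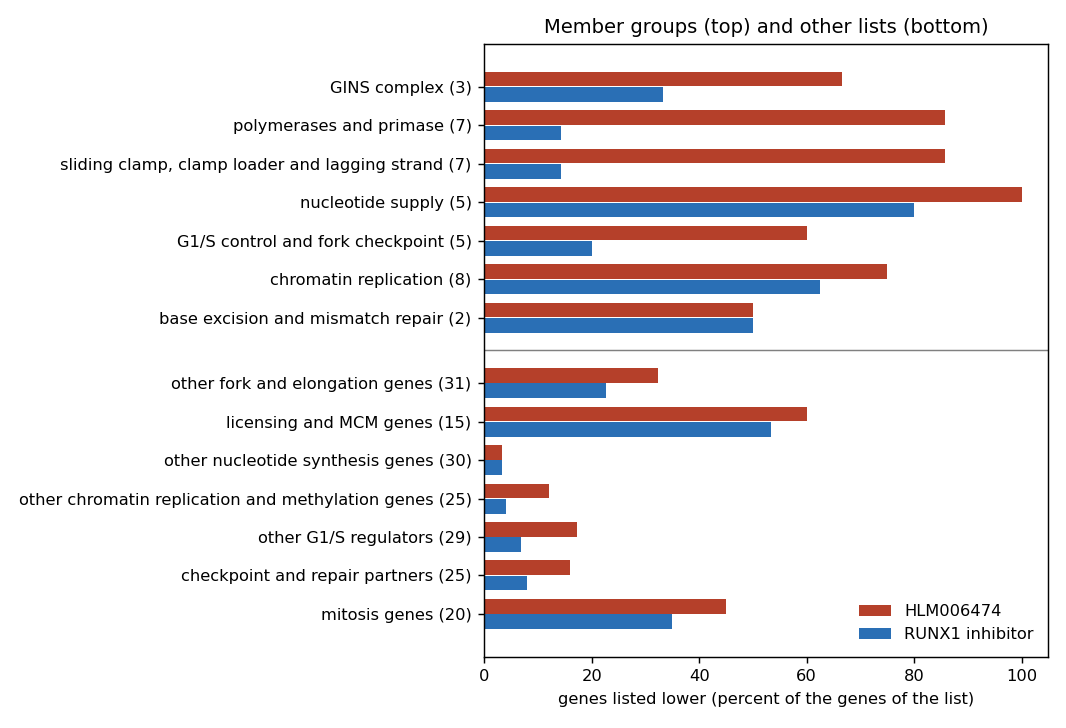
Percent of genes listed as lower under HLM006474 (red) and the RUNX1 inhibitor (blue) in the 7 member groups (above the line) and the 7 other lists (below it), with the number of genes in brackets. Nucleotide supply stands highest among the member groups (5 of 5 and 4 of 5), while the other nucleotide synthesis genes had 1 of 30 for each compound. That is near the share of all genes tested (4.22% and 2.32%).

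Markers of other cells moved beside these falls, and their part in them was not tested. Of all genes tested, 4.22% were listed as lower under HLM006474, 2.32% under the RUNX1 inhibitor and 2.64% under SB431542. Under HLM006474 7 of 12 oligodendrocyte lineage markers were lower, among them Pdgfra and Cspg4, at -0.84 ± 0.145 and -1.01 ± 0.135 in the authors' deposited table. Their mean counts were 930 and 361. Under the RUNX1 inhibitor none of the 12 was listed, though an unlisted marker may have changed by less than 1.5-fold. Under SB431542 1 of the 12 was listed, Cspg4 at -1.04 ± 0.135 in the authors' deposited table. Of 13 microglia and macrophage markers 3 were lower and 1 higher under HLM006474, none was listed under the RUNX1 inhibitor, and 4 were lower and 2 higher under SB431542. Of 10 fibroblast and mural markers 4 were lower and 1 higher under HLM006474, 2 were lower under the RUNX1 inhibitor and 4 under SB431542. Of 8 neuron markers, Syt1 was lower under HLM006474 and Tubb3 under the RUNX1 inhibitor, at -0.70 ± 0.245 and -0.72 ± 0.095 by the authors' deposited tables. Of 7 endothelial markers, only Flt1 was listed, lower under the RUNX1 inhibitor (-1.12 ± 0.407) and SB431542 (-1.17 ± 0.406) in the authors' deposited tables. Astrocyte markers were listed in 1 of 13 cases for each compound, Fabp7 at a mean count of 19000 being lower under HLM006474 and the RUNX1 inhibitor. Kcnj10, at a mean count of 23900, was the 1 lower under SB431542. Acta2 (38000) and Tagln (33800) of the fibroblast and mural list and Lyz2 (24200) of the microglia and macrophage list had higher mean counts. Other listed markers of those lists had lower ones. Shares of cell types cannot be read from these counts. The levels of the other astrocyte markers are outside the tables, so the labelled cell type was checked only on Fabp7 and Kcnj10.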

How the data were processed

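RNA of 13 samples was sequenced, and 3 tables of the authors' comparisons were used, each of 1 compound against vehicle. CASAVA 1.8, STAR 2.7, DESeq2 1.30.1 and build GRCm38 are named in the submitters' processing notes. For read counter, annotation and strandedness nothing is stated in the sources used here. Per the file headers, the deposited mean count is a signal averaged over libraries after scaling by depth. The authors also deposited log2 fold changes with standard errors, a Wald score and, before and after adjustment, a p-value. Every listed gene has an adjusted p under 0.05 and about a 1.5-fold change or more, so depth and values per sample are unknown here.

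The number of genes tested was recovered from the ratio of p to adjusted p (ranks whole within 0.02 for 79.6% to 83.9% of checked genes). Members and lists were chosen with earlier results of these data known. The text names every member, at most the 4 listed genes of lowest adjusted p per direction from each other list, and at most 3 per marker list. The values of 1 listed gene of nucleotide synthesis are not reported here. Mthfd2, Shmt1, Asf1b and Myc are the SB431542 genes of those lists. Differences between compounds were tested with a z test on the deposited values, adjusted by Benjamini-Hochberg over all genes concerned. Unlisted genes were given the table's limit and the other compound's error. These assume that the gene was tested in both comparisons. The bounds against SB431542 were added after the data were seen. Scripts (Python 3.11.15, pandas 2.3.3, SciPy 1.17.1) were tested on simulated data. Promoter windows are RefSeq's, build GRCm38.p6, and exon lengths GENCODE M21's.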

Additional observations from a re-analysis of the deposited data

How the results depend on the processing

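Counts of genes lower under HLM006474 stayed at 29 with an adjusted p under 0.01 and with a mean count of at least 100, and fell to 8 at a 2-fold limit. Under the RUNX1 inhibitor these settings gave 13, 14 and 0. The count limit tests nothing for the 29 and the 14, since the lowest mean count among them was 121. Of all genes listed as lower, 209 of 640 and 67 of 315 reached 2-fold. A share over only the genes in at least 1 table tests nothing for HLM006474, since these are the 29 it lists. The number of differing falls between these compounds was 2, became 5 with the shared vehicle standard error and 0 with Bonferroni adjustment, and stayed at 2 with the count limit. Genes past the RUNX1 inhibitor limit numbered 2, but 1 with the error assumed for the unlisted compound 1.1 times larger and 3 with the count limit. Those past the SB431542 limit numbered 7 for HLM006474 (6 with the larger error, 9 with the count limit) and 1 for the RUNX1 inhibitor, ending at 0 with the larger error. Genes with an E2F-type core numbered 23, and 15 with the 8-letter forms. No paired analysis was possible because the tables hold no values per sample, and leaving out single samples was not run for the same reason. Depth per library is unknown, and a change under 1.5-fold is not seen in these tables.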

Other observations

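Of the genes listed as lower under HLM006474 that have a promoter window, 109 of 459 (23.7%) held an E2F-type core, against 30 of 280 (10.7%) of those lower under SB431542 and 10.9% of all genes with a window. Among protein-coding genes the share was 13.7%. The 459 include 25 of the 37 genes named as E2F-driven, of which 19 held a core, so part of the excess is built in. The share among genes lower under the RUNX1 inhibitor is not given here, so the contrast is not shown to be particular to HLM006474. By p-value rank, about 3872 genes (25.5% of those tested) had a p as low as the last gene listed for HLM006474. The like numbers were 2790 (20.6%) for the RUNX1 inhibitor and 3148 (20.8%) for SB431542, while the tables list 856, 397 and 748.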
